A study of Mus musculus with 53 samples.

Results

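Solute carrier genes encode the membrane proteins that move nutrients, ions, vitamins and metabolites across the plasma membrane and the membranes of mitochondria, the endoplasmic reticulum, the Golgi and vesicles. The genes described here were the names of Slc, a number, a letter and a number in the bulk RNA table of mouse embryonic stem cells. Slc2a1, Slc2a3, Slc3a2 and Slc7a5, glucose carriers and amino acid exchanger chains, were set aside by name, and Slc7a11 was not among the rows. This left 183 of the 11647 genes in the table. They fell into 8 substrate classes by family: 35 mitochondrial carriers, 30 carriers of amino acids and peptides, 26 of inorganic ions and pH, 25 of metals, 23 of nucleotide sugars and acetyl-CoA, 15 of sugars and carboxylates, 15 of vitamins, nucleosides, choline and heme, and 14 of organic ions, bile acids, fatty acids and vesicle cargo. The classes follow family number, so a few genes carry another substrate than their class name says.

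A carrier works either as a uniporter that follows a gradient, as a symporter that couples its substrate to sodium or protons, or as an exchanger that trades one solute for another. Stem cells in culture take up amino acids, sugars, phosphate and nucleosides from the medium, release lactate, and exchange ADP, ATP, phosphate and citrate across the inner mitochondrial membrane. Many carriers of liver, gut and kidney, such as those of citrate, peptides or organic anions, belong to the same families.

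The transcription factor Tbx3, of the T-box family, is made in embryonic stem cells. RNA came from R1 cells, a 129 line, kept in medium with serum and the cytokine LIF and no feeder cells. The N/N cells are labelled Tbx3 null, the +/N cells heterozygous and the +/+ cells wild type, and the shTbx3 and shLuc cells were wild type with a short hairpin RNA to Tbx3 or, as its control, to luciferase. Each group was 1 library, the labels do not say what the N allele lacks or how many clones stand behind a library, and no difference below has a replicate check or a test. Another file listed 3078 sites bound by biotin- and Flag-tagged Tbx3 in N/N cells that also expressed the ligase BirA, with pull-down from cells with BirA alone as the negative control. A last table held 45 single R1 cells, sorted as SSEA1+ and DAPI-, and 1 pool of them. How deeply each library was read is not given in the sources used. Values are FPKM, in which fragments are divided by transcript length and by the library total, so levels of different genes are compared per length.

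Tbx3 itself stood at 15.1 FPKM in N/N, 22.5 in +/N and 44.4 in +/+, and at 5.09 in shTbx3 against 13.8 in shLuc, so transcript was reduced but still read in every library. Of 7 embryonic stem cell markers, 6 were listed, and they summed to 1091, 1139 and 1407 FPKM in N/N, +/N and +/+ and to 2057 FPKM in shTbx3 against 1830 in shLuc. Markers of other cells moved with the groups. The 7 fibroblast markers summed to 120, 115 and 46.4 FPKM in N/N, +/N and +/+ and to 18.1 in shTbx3 against 8.20 in shLuc, with Postn and Lox at 0 in a library. Of these 7, 5 were at least 2-fold higher in N/N than in +/+, and 2 in shTbx3 than in shLuc. The 8 endoderm markers summed to 11.1, 20.9 and 81.1 FPKM in N/N, +/N and +/+, with 7 of them at least 2-fold lower in N/N than in +/+, and to 23.6 in shTbx3 against 21.1 in shLuc. All 5 listed primitive streak markers were 2-fold or more higher in shTbx3 (summed 77.2 FPKM against 2.74 in shLuc), and all 5 listed B-cell and antigen presentation markers lower (6.71 against 86.4). The 5 epithelial markers summed to 607 FPKM in shTbx3 against 221 in shLuc, with 3 of them at least 2-fold higher. The part of all these markers in the values below was not tested. In bulk RNA, fewer cells of a type cannot be told apart from less RNA per cell.

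The solute carrier genes listed in the bulk table were mostly low. Their median level was 5.19 FPKM in N/N, 5.24 in +/N and 5.75 in +/+, and 6.57 in shTbx3 against 5.33 in shLuc, below the medians of all genes in the same libraries (9.60, 9.13, 9.83, 10.6 and 9.36 FPKM). A total of 163 stood at 1 FPKM or more in every bulk library and 83 at 5 FPKM or more, and none was at 0. The proline carrier Slc6a7 was the only member under 1 FPKM in all 5 libraries, between 0.487 and 0.881 FPKM. The same held for the table as a whole: 11465 of its 11473 placed genes reached 1 FPKM in a bulk library. These counts thus follow from the rows listed, and do not show how many solute carrier genes the cells express. Together the 183 genes held 0.754% to 0.795% of the summed FPKM of a library. Their summed level was 2712 FPKM in N/N, 2481 in +/N and 2695 in +/+, and 3102 in shTbx3 against 2652 in shLuc.

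Carriers of the inner mitochondrial membrane led the list. Slc25a3, which imports phosphate for ATP synthesis, stood at 238 FPKM in N/N, 208 in +/N, 235 in +/+, 333 in shTbx3 and 254 in shLuc. Slc25a5, an ADP/ATP exchanger of dividing cells, stood at 145, 117 and 116 FPKM in N/N, +/N and +/+ and at 341 FPKM in shTbx3 against 349 in shLuc. Slc25a4, the ADP/ATP exchanger best known from muscle, stood at 196, 152 and 209 FPKM in N/N, +/N and +/+ and at 212 FPKM in shTbx3 against 207 in shLuc. These 3 genes held between 19.2% and 30.5% of the summed level of all solute carriers. Slc25a5 separated the hairpin libraries from the allele libraries far more than it separated N/N from +/+. Families with close copies and processed pseudogenes, as those of the ADP/ATP exchangers, can share short reads, so their levels are uncertain.

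Below these stood Slc25a39, which imports glutathione into mitochondria (141, 120 and 134 FPKM in N/N, +/N and +/+), the nucleoside carrier Slc29a1 (74.5, 76.8 and 111 FPKM), the lactate exporter Slc16a3 (99.2, 103 and 121 FPKM) and the citrate carrier Slc25a1 (139, 94.8 and 83.9 FPKM). Slc20a1, a sodium-coupled phosphate importer, varied little, at 69.9, 74.1 and 68.4 FPKM in N/N, +/N and +/+ and 86.9 FPKM in shTbx3 against 74.4 in shLuc. Among amino acid carriers the highest were Slc38a2 (64.4, 69.6 and 75.7 FPKM), Slc38a4 (66.5, 53.85 and 47.3 FPKM), both sodium-coupled carriers of neutral amino acids, and Slc7a3 (33.7, 35.1 and 37.8 FPKM), which carries arginine and lysine. The zinc carrier Slc39a7, at 47.5, 49.3 and 55.7 FPKM, led the metal carriers, with 80.1% of its exon bases shared with the annotated gene Gm20427. The genes set aside by name lay higher than most: Slc2a1 stood at 338, 371 and 416 FPKM in N/N, +/N and +/+.

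**Figure D1:**
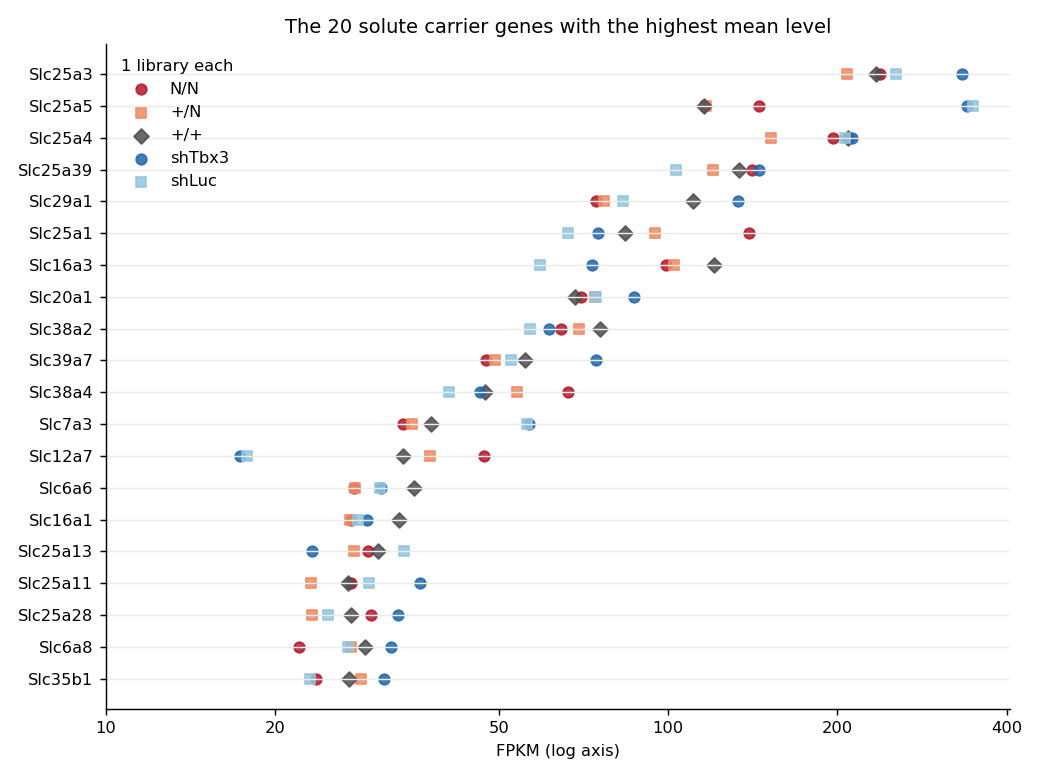
FPKM (log axis) of the 20 solute carrier genes with the highest mean level, with 1 point per library for N/N, +/N, +/+, shTbx3 and shLuc. The mitochondrial carriers Slc25a3, Slc25a5 and Slc25a4 lie at the top, and Slc25a5 stands at 341 and 349 FPKM in the hairpin libraries and at 116 to 145 FPKM in the allele libraries.

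The comparison of N/N with +/+ asked which carriers differ when both Tbx3 alleles are targeted. Few did. A fold was taken as (FPKM + 1)/(FPKM + 1), on a log2 scale, for each gene that reached 1 FPKM in at least 1 of the libraries compared, which understates the change of low genes. Of 180 solute carrier genes past that filter, 2 were at least 2-fold higher in N/N (1.11%, beside 1.37% of all genes) and 3 at least 2-fold lower (1.67%, beside 1.92% of all genes). At 1.5-fold, 12 were higher (6.67%, beside 5.45%) and 11 lower (6.11%, beside 6.47%). Their median log2 difference was 0.01, against -0.03 over all genes, and 92 lay above 0 and 88 below. The shares of solute carriers past either fold thus lay near those of all genes. The counts turn on the pseudocount: 6 genes were higher and 8 lower with 0.1 in place of 1, and none passed 2-fold with 5.

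Slc28a1 (chr7:88259685-88315302, mm9), a sodium-coupled importer of pyrimidine nucleosides, had the largest positive difference. It stood at 21.0 FPKM in N/N, 17.9 in +/N and 8.23 in +/+, a log2 difference of 1.25 for N/N over +/+ and 1.03 for +/N over +/+. Both libraries with a targeted allele were thus high, and the hairpin libraries lay near +/+, at 9.60 FPKM in shTbx3 against 6.75 in shLuc (log2 0.45). Slc22a7 (chr17:46569134-46575426), an organic anion carrier known from liver and kidney, stood at 5.68, 4.32 and 2.31 FPKM in N/N, +/N and +/+ (log2 1.01 for N/N over +/+). In the hairpin pair it was the other way round, at 3.11 FPKM in shTbx3 against 3.80 in shLuc (log2 -0.22).

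Slc13a5 (chr11:72055496-72080724), which imports citrate with sodium in liver, had the largest negative difference. It stood at 0.891 FPKM in N/N, 1.45 in +/N and 5.50 in +/+, a log2 difference of -1.78 for N/N and -1.41 for +/N, and at 0.854 FPKM in shTbx3 against 1.80 in shLuc (log2 -0.60). The +/+ library had the most Slc13a5, and also the most Tbx3 and the highest summed endoderm markers. This is 1 library, and a link of Slc13a5 to either was not tested. Slc7a1 (chr5:149138986-149211480), the common importer of arginine and lysine, stood at 4.43, 6.47 and 10.2 FPKM in N/N, +/N and +/+ (log2 -1.05 for N/N over +/+) and at 6.99 FPKM in shTbx3 against 8.73 in shLuc (log2 -0.28). Its relative Slc7a3, far higher in level, stood at 33.7 FPKM in N/N against 37.8 in +/+ (log2 -0.16). Slc47a1 (chr11:61156902-61191847), which extrudes organic cations from kidney and liver cells, stood at 0.538, 1.08 and 2.33 FPKM in N/N, +/N and +/+ (log2 -1.11) and at 0.584 FPKM in shTbx3 against 2.12 in shLuc (log2 -0.98). It is low in every library, and was named after its values were seen.

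**Figure D2:**
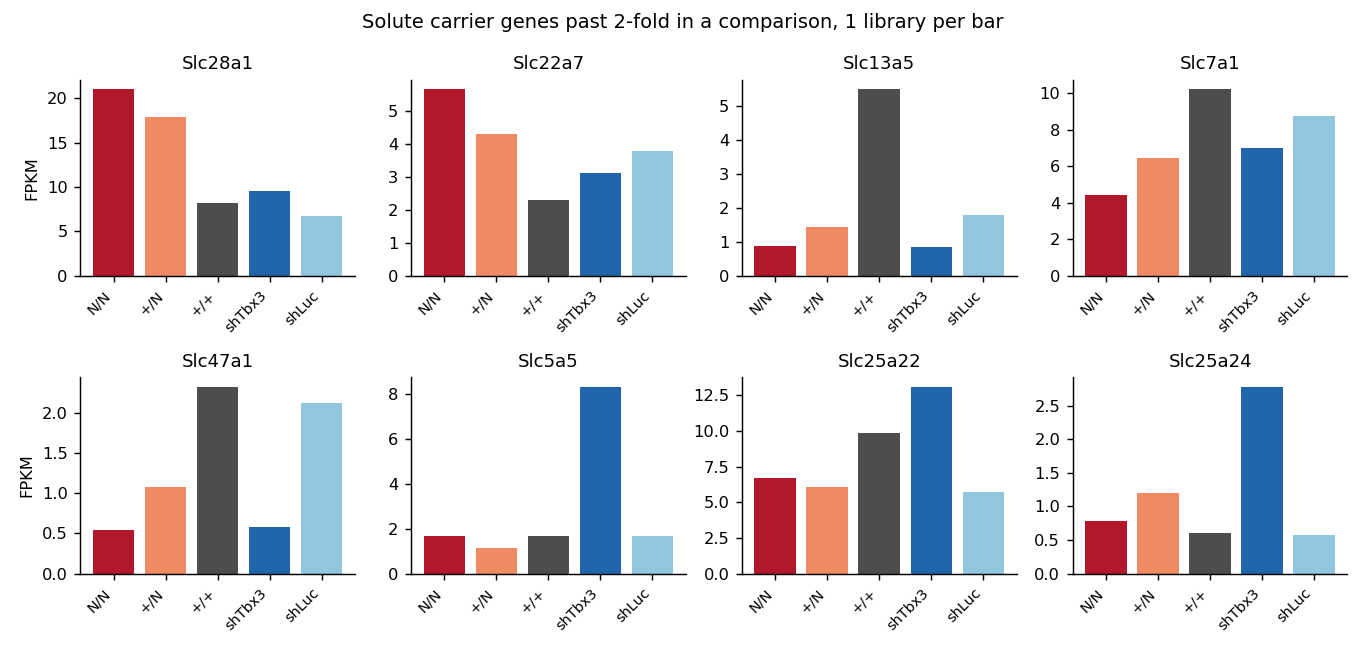
FPKM of the 8 solute carrier genes that passed 2-fold in a comparison, with 1 bar per library in the order N/N, +/N, +/+, shTbx3, shLuc and an axis of its own for each gene. Slc13a5 and Slc47a1 are highest in +/+ and low in both N/N and shTbx3, and Slc5a5, Slc25a22 and Slc25a24 are highest in shTbx3.

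Beside each class count for N/N against +/+ stand 5.45% of all genes at least 1.5-fold higher and 6.47% lower, with a median of -0.03. By class, amino acid and peptide carriers had 4 genes at least 1.5-fold higher and 4 lower of 29 past the filter, with a median log2 difference of 0.01. The higher included Slc43a1, a sodium-independent carrier of leucine and other large neutral amino acids (7.40, 6.60 and 3.81 FPKM in N/N, +/N and +/+, log2 0.80), and Slc1a4, a neutral amino acid exchanger (10.6, 8.86 and 6.70 FPKM, log2 0.59). The lower included Slc7a6, which exchanges arginine for neutral amino acids (5.19, 4.97 and 10.4 FPKM, log2 -0.88). So the class had genes on either side, and the cationic amino acid carriers Slc7a1 and Slc7a6 were on the lower side.

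Sugar and carboxylate carriers had none higher and 2 lower at 1.5-fold of 15 (median -0.01). The monocarboxylate carriers that move lactate differed little: Slc16a3 by -0.28 and Slc16a1 by -0.27 (27.3, 27.2 and 33.2 FPKM). Mitochondrial carriers had 1 gene at least 1.5-fold higher and none lower of 34 (median 0.02). That gene was Slc25a1, which exports citrate from mitochondria to the cytosol, with a log2 difference of 0.72. It was higher in N/N than in +/N as well (log2 0.55), while +/N and +/+ lay closer together (0.17). Slc25a20, the carnitine and acylcarnitine exchanger of fatty acid oxidation, was among the most negative of the class, at 17.4, 16.8 and 26.3 FPKM (log2 -0.57). The citrate importer of the plasma membrane, Slc13a5, and the citrate exporter of mitochondria, Slc25a1, differed in opposite directions. Both were named for large differences between single libraries, and a link between them was not tested.

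The nucleotide sugar and acetyl-CoA carriers, which supply the Golgi and endoplasmic reticulum, had none past 1.5-fold. They had the most negative class median (-0.13, with 17 of 23 below 0). Slc35e1 was the lowest of those at 5 FPKM or more (8.39, 7.98 and 12.8 FPKM, log2 -0.55). Slc35b1, a carrier of the endoplasmic reticulum, stood at 23.6, 28.4 and 27.1 FPKM (log2 -0.19).

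Metal carriers had 1 gene higher and 2 lower at 1.5-fold of 24 (median 0.02). The higher was Slc30a3 (log2 0.95), and the lower were Slc11a1 (log2 -0.86) and Slc39a14. Slc30a3 and Slc11a1 are low and were named after their values were seen. Under 1.5-fold, Slc39a4, a zinc importer of the gut, stood at 33.6, 26.5 and 22.3 FPKM (log2 0.57), and Slc31a1, the copper importer, at 22.03, 18.9 and 15.5 FPKM (log2 0.48). Slc39a14, an importer of zinc, iron and manganese, stood at 8.84, 9.32 and 13.9 FPKM (log2 -0.60). The zinc exporter Slc30a1 stood at 8.003, 7.94 and 12.4 FPKM (log2 -0.58, under 1.5-fold).

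Inorganic ion and pH carriers had the highest class median (0.10, with 17 of 26 above 0), with 2 higher and 1 lower at 1.5-fold. Slc20a2, a phosphate importer, stood at 18.4, 18.998 and 32.9 FPKM (log2 -0.81), while its partner Slc20a1 differed by 0.03. The higher were Slc24a5, low at 1.71, 1.16 and 0.514 FPKM (log2 0.84), and Slc4a11, of the bicarbonate carrier family, at 11.1, 8.91 and 6.88 FPKM (log2 0.61). The potassium-chloride cotransporter Slc12a7 stood at 47.1, 37.7 and 33.7 FPKM (log2 0.47, under 1.5-fold).

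Carriers of vitamins, nucleosides, choline and heme had 3 genes higher and none lower at 1.5-fold of 15 (median 0.07). Of the nucleoside carriers, Slc28a1 was higher, and Slc29a1, which lets nucleosides pass by their gradient, stood at 74.5 FPKM in N/N against 111 in +/+ (log2 -0.57, under 1.5-fold). Its relatives Slc29a2, Slc29a3 and Slc29a4 had log2 differences of -0.0011, -0.38 and 0.10. The choline carriers Slc44a1 (19.5, 18.6 and 14.6 FPKM, log2 0.39) and Slc44a2 (19.3, 16.9 and 14.2 FPKM, log2 0.42) were on the higher side, both under 1.5-fold. Carriers of organic ions, bile acids, fatty acids and vesicle cargo had 1 higher and 2 lower at 1.5-fold of 14 (median -0.05). Slc22a18, an imprinted organic cation carrier, was lower in N/N alone among the allele libraries, at 1.52, 3.58 and 3.64 FPKM (log2 -0.88 against +/+).

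**Figure D3:**
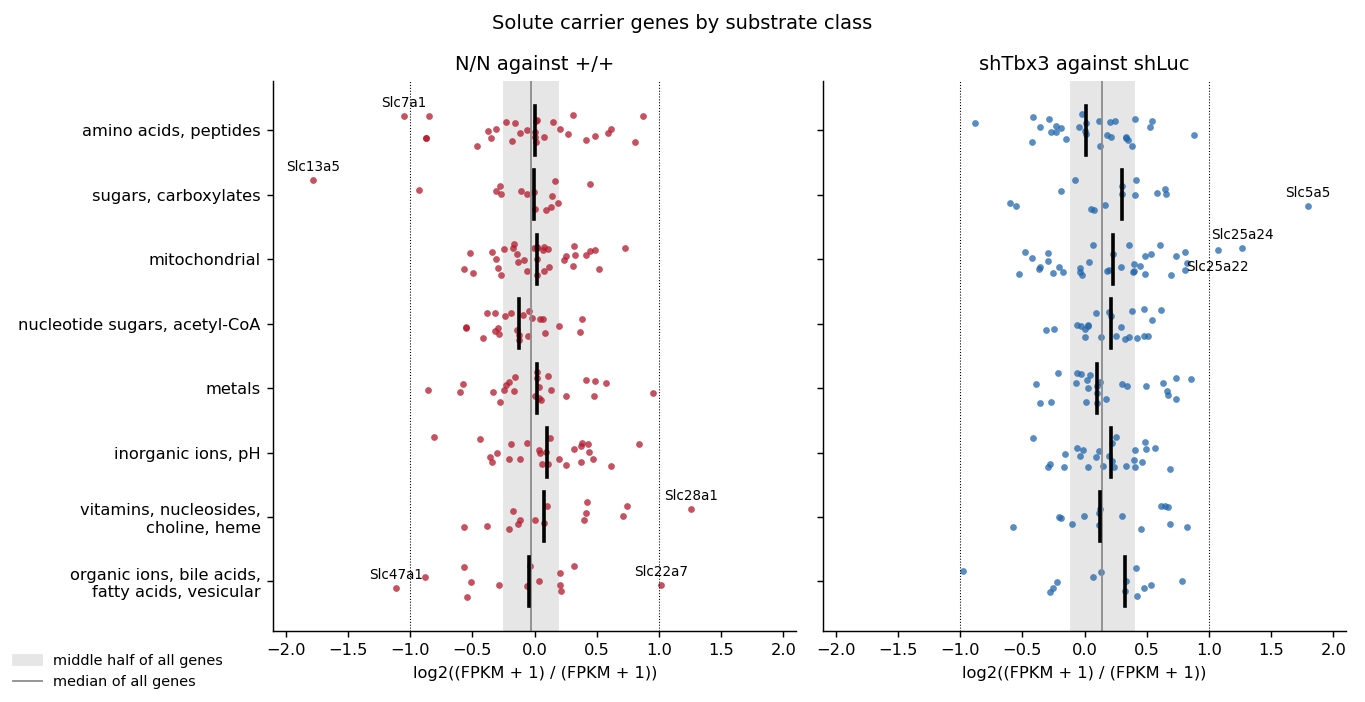
Log2((FPKM + 1)/(FPKM + 1)) of each solute carrier gene past the filter, by substrate class, for N/N against +/+ (left) and shTbx3 against shLuc (right). Black bars are class medians, the grey band is the middle part of all genes between their quartiles, the grey line is the median of all genes, and dotted lines mark 2-fold. Most genes lie within 2-fold, and in the hairpin pair all class medians lie above 0, as does the median of all genes (0.14).

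The heterozygous library asked whether 1 targeted allele goes with the same values. In +/N against +/+, 1 of 181 genes was at least 2-fold higher (0.552%, beside 0.698% of all genes) and 1 at least 2-fold lower (0.552%, beside 1.21%). They were Slc28a1 and Slc13a5. At 1.5-fold, 4 were higher (2.21%, beside 2.44%) and 11 lower (6.08%, beside 4.91%), with a median of -0.05 against -0.10 over all genes. Slc7a6 (log2 -0.93) and Slc20a2 (-0.76) were as low in +/N as in N/N, whereas Slc7a1 was between +/+ and N/N (-0.59). This comparison shares the +/+ library with the one above, so agreement between them carries no weight of its own.

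In N/N against +/N, none of 181 genes was 2-fold higher (beside 0.317% of all genes) or lower (beside 0.308%), and 2 were at least 1.5-fold lower (1.10%, beside 0.801%). They were Slc22a18 (log2 -0.86) and Slc1a1, a glutamate importer, at 0.738 FPKM in N/N against 1.91 in +/N (log2 -0.74). None was 1.5-fold higher (beside 0.977%). The median was 0.04, against 0.07 over all genes. The 3 allele libraries were in the order N/N above +/N above +/+ for 49 of 182 genes (26.9%, beside 25.4% of all genes) and in the reverse order for 52 (28.6%, beside 22.5%).

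The hairpin pair asked the same with Tbx3 lowered in wild-type cells. Of 181 carriers, 3 were 2-fold or more higher in shTbx3 (1.66%, beside 2.81% of all genes) and none at least 2-fold lower (beside 0.987%). At 1.5-fold, 26 were higher (14.4%, beside 12.7%) and 3 lower (1.66%, beside 3.73%). The median was 0.17, against 0.14 over all genes. Most genes of the pair leaned upward: those reaching 5 FPKM in each of the 2 libraries had a median of 0.16, and with that median set to 0 the solute carriers had a median of 0.01 and 2 genes were 2-fold or more lower. With a pseudocount of 0.1, 9 were higher and 2 lower, and with 5 none passed 2-fold.

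Slc5a5 (chr8:73406788-73416656), the sodium-iodide symporter of the thyroid, stood at 8.32 FPKM in shTbx3 against 1.68 in shLuc (log2 1.80), and at 1.68, 1.15 and 1.69 FPKM in N/N, +/N and +/+. It was thus high in shTbx3 alone of the 5 libraries. Slc25a22 (chr7:148615638-148623791), which imports glutamate into mitochondria, stood at 13.1 FPKM in shTbx3 against 5.72 in shLuc (log2 1.07). It no longer passed 2-fold with the median of genes at 5 FPKM set to 0 (0.91) or when rescaled without small RNA genes (0.87). In the allele libraries it stood at 6.67, 6.06 and 9.84 FPKM in N/N, +/N and +/+, lower with the targeted alleles. Slc25a24 (chr3:108926067-108971375), which exchanges ATP-magnesium for phosphate in mitochondria, stood at 2.78 FPKM in shTbx3 against 0.570 in shLuc (log2 1.27), and was named after its values were seen. Slc22a17, the lipocalin receptor, stood at 11.2 FPKM in shTbx3 against 6.11 in shLuc (log2 0.78) and between 3.59 and 3.79 FPKM in the allele libraries.

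Beside each class count in this pair stand 12.7% of all genes at least 1.5-fold higher and 3.73% lower, with a median of 0.14. The classes are small, so a class with none lower is not read as a result. By class, the mitochondrial carriers had 8 genes of 35 at least 1.5-fold higher and none lower (median 0.22). Besides Slc25a22 and Slc25a24 they included Slc25a38, which carries glycine for heme synthesis, at 24.9 FPKM in shTbx3 against 14.5 in shLuc (log2 0.74). The aspartate-glutamate exchanger Slc25a13 stood at 23.2 FPKM in shTbx3 against 33.96 in shLuc (log2 -0.53), and Slc25a36, a pyrimidine nucleotide carrier, at 23.8 against 33.5 (log2 -0.48). The class therefore held members in either direction.

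Metal carriers had 6 of 25 at least 1.5-fold higher and none lower (median 0.10), with Slc39a4 at 19.4 FPKM in shTbx3 against 11.9 in shLuc (log2 0.67) and Slc39a1 at 20.8 against 13.1 (log2 0.63). Carriers of vitamins, nucleosides, choline and heme had 5 of 15 higher and none lower (median 0.13). They included Slc44a1 (20.7 FPKM in shTbx3 against 11.3 in shLuc, log2 0.82), the folate importer Slc19a1 (13.5 against 8.03, log2 0.69) and Slc29a1 (133 against 83.2, log2 0.67).

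Amino acid and peptide carriers lay lower than other classes in this pair, with 1 gene higher and 1 lower at 1.5-fold of 29 and a median of 0.01, or -0.14 once the shift of all genes was removed. Slc43a1 was the higher, at 5.19 FPKM in shTbx3 against 2.37 in shLuc (log2 0.88). Slc15a1, the importer of small peptides known from the gut, was the lower, at 1.14 against 2.94 FPKM (log2 -0.88). Sugar and carboxylate carriers had 3 higher and 1 lower of 15 (median 0.30), nucleotide sugar carriers 1 higher of 23 (median 0.21), ion carriers 1 higher of 26 (median 0.21) and organic ion carriers 1 higher and 1 lower of 13 (median 0.32).

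Few carriers moved the same way in N/N against +/+ and shTbx3 against shLuc, which share no library. Of 179 genes past the filter in each, 3 were at least 1.5-fold higher in both (1.68%, beside 1.18% of all genes) and 2 at least 1.5-fold lower in both (1.12%, beside 0.546%). The higher were Slc43a1, Slc30a3 and Slc23a1. Slc30a3, which loads zinc into synaptic vesicles, stood at 2.93, 1.92 and 1.03 FPKM in N/N, +/N and +/+ and at 3.15 FPKM in shTbx3 against 1.29 in shLuc. Slc23a1, an ascorbate importer, stood at 1.30, 0.897 and 0.375 FPKM in N/N, +/N and +/+ and at 2.68 FPKM in shTbx3 against 1.35 in shLuc. The lower were Slc13a5 and Slc47a1. Slc30a3 and Slc23a1 are low and were named after their values were seen. No gene was past 1.5-fold in opposite directions (beside 0.402% of all genes higher in N/N and lower in shTbx3, and 1.17% the reverse), and 79 genes (44.1%, beside 45.4%) had the same sign in both.

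The control libraries of the 2 designs, shLuc and +/+, are both wild-type R1 cells, and their comparison was added after seeing the data. Of 180 solute carrier genes, 4 were at least 2-fold higher in shLuc than in +/+ (2.22%, beside 5.68% of all genes) and 6 at least 2-fold lower (3.33%, beside 5.88%). Together they outnumber the 5 past 2-fold in N/N against +/+. Slc25a5 stood at 349 FPKM in shLuc against 116 in +/+, and the amino acid carrier Slc6a15, the mitochondrial carrier Slc25a40 and the peptide carrier Slc15a2 were also higher. The zinc exporter Slc30a1 stood at 3.58 FPKM in shLuc against 12.4 in +/+, and Slc13a5, Slc39a3, Slc25a20, Slc45a4 and Slc16a3 were lower too. Slc13a5 thus differed between wild-type libraries (1.80 against 5.50 FPKM) by about as much as between +/N and +/+ (1.45 against 5.50 FPKM). The wild-type libraries were not alike in Tbx3 itself, at 13.8 FPKM in shLuc against 44.4 in +/+. Nor were they alike in summed endoderm markers, at 21.1 FPKM against 81.1. The part of either in these differences was not tested.

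Genes of other transport families were counted the same way. Of 19 ABC transporters none passed 2-fold in any of the 4 comparisons, and their median log2 difference was 0.10 in N/N against +/+ and 0.26 in shTbx3 against shLuc (all genes -0.03 and 0.14). The same medians were -0.02 and 0.05 for the ion pumps and 0.09 and 0.19 for the carrier-like genes. Of 40 ion pump genes, 2 were at least 2-fold lower in N/N than in +/+ (5%, beside 1.92% of all genes): Atp2a3, a calcium pump of the endoplasmic reticulum, at 2.15 FPKM in N/N against 10.3 in +/+ (log2 -1.84; -1.12 for +/N), and Atp1b2, a sodium pump subunit, at 4.95 against 11.1 (log2 -1.02). Of 19 carrier-like genes with other names, 1 was higher and 1 lower (5.26% each, beside 1.37% and 1.92%). Aqp3, a water and glycerol channel, stood at 23.05 FPKM in N/N against 10.3 in +/+ (log2 1.08), and Slco2a1, a prostaglandin carrier, at 0.316 against 1.77 (log2 -1.08).

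Sites bound by Tbx3 lay within 20 kb of the start of 37 of the 183 genes (20.2%, beside 14.9% of the 11473 genes of the table that could be placed on the annotation). There were 42 such sites, 24 upstream and 18 downstream. Distances are from the nearest edge of a site to the gene start, in mm9 with the GENCODE annotation of that build. Of the 42, 15 lay within 1 kb of the start (8 of them over it), 10 between 1 and 5 kb and 17 farther out. Their scores, the authors' peak values on a scale that is not stated, ran from 50.6 to 248 with a median of 75.6, close to the 76.7 of all sites. In 33 of the 42 pairs the solute carrier was the nearest coding start, in 7 another gene was nearer, and in 2 (Slc35a5 with Atg3, Slc39a7 with Rxrb) the site lay over both starts.

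Amino acid and peptide carriers had a site in 10 of 30 genes (33.3%, beside 14.9% of all placed genes). The count was 4 of 14 for organic ion carriers (28.6%) and 7 of 26 for inorganic ion carriers (26.9%). For nucleotide sugar carriers it was 5 of 23 (21.7%) and for mitochondrial carriers 5 of 35 (14.3%). Carriers of sugars and of vitamins had 2 of 15 each (13.3%), and metal carriers 2 of 25 (8.0%). The classes are small, and differences between them were not tested. The amino acid carriers included Slc7a3, Slc7a7, Slc43a1, Slc1a3, Slc1a4, Slc38a2, Slc38a7, Slc38a10, Slc6a15 and Slc15a1. Slc43a1, Slc25a1, Slc35b4, Slc35f2 and Slc17a9 each had more than 1 site.

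The highest score, 248, belonged to a site 19782 bp upstream of Slc20a1 on chromosome 2, within an exon of the annotated gene AI847159. The next stood over the start of Slc35f2 (score 219), an orphan relative of the nucleotide sugar carriers, with another site of score 51.8 at 379 bp. A site 17597 bp from the start of Slc27a4 (score 218), a fatty acid carrier, lay 156 bp from the start of Urm1. Slc25a40 had a site 1303 bp into the gene (score 203) and the potassium-chloride cotransporter Slc12a4 a site 793 bp upstream (score 203). The sites near Slc25a22, Slc22a18, Slc35b2 and Slc39a7 lay over the starts of Pnpla2, Cdkn1c, Hsp90ab1 and Rxrb, and the last also covers the start of Slc39a7 itself, so distance does not tie them to the carrier alone.

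The centres of 5 of these sites are printed because they carry a T-box or an octamer match or a high score next to a carrier. Each is 300 bases of mm9 (NCBIM37), plus strand, centred on the deposited site. Capitals mark GGTGTGA, the core of the T-box sequence, or ATTTGCAT, the octamer bound by POU factors such as Oct4, on either strand (TCACACC and ATGCAAAT on the minus). The Slc43a1 window is chr2:84677341-84677640, 1217 bp or more upstream and outside any annotated gene. Those of Slc1a4 (chr11:20220781-20221080) and Slc25a36 (chr9:97004240-97004539) lie in introns. Those of Slc39a14 (chr14:70751783-70752082, a little wider than its site) and Slc12a4 (chr8:108490897-108491196) lie upstream outside any annotated gene, and that of Slc12a4 has neither match.
Slc43a1: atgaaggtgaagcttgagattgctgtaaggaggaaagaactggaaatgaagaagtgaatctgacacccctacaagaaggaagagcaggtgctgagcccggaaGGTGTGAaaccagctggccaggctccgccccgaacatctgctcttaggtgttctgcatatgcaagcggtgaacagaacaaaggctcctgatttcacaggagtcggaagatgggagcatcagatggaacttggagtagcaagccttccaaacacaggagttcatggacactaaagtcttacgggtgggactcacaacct
Slc1a4: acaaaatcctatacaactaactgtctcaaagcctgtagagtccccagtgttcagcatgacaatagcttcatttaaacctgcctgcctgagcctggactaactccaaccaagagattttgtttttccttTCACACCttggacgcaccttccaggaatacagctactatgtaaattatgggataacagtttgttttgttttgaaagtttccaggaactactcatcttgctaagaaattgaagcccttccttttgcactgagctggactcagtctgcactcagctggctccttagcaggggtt
Slc25a36: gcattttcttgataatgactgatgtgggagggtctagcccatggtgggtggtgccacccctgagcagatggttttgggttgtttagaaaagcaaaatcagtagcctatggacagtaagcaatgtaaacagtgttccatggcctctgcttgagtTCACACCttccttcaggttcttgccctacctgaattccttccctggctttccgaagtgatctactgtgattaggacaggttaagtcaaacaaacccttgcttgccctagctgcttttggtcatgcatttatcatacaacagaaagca
Slc39a14: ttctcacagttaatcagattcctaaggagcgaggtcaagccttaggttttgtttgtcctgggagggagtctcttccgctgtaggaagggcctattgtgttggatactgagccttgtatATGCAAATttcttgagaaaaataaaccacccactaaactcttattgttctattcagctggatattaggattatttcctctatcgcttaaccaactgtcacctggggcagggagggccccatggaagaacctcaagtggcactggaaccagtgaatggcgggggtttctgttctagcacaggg
Slc12a4: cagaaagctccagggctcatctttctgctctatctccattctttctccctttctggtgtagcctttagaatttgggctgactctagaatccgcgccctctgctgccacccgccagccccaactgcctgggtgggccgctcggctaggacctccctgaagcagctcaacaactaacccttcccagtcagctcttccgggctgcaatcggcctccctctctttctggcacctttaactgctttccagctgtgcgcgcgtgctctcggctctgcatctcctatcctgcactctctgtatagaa
Searched on both strands of the 300-base centres, GGTGTGA was found in 4 of the 42 sites near carriers (9.52%, beside 10% of the 3078 sites), those at Slc43a1, Slc1a4, Slc25a36 and Slc12a9. The longer AGGTGTGA, which contains it, was found in 3 (7.14%, beside 4%) and ATTTGCAT in 4 (9.52%, beside 6.4%). A match describes these letters and is no evidence of binding by a given factor, and most of the sites, that at Slc12a4 included, had neither.

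**Figure D4:**
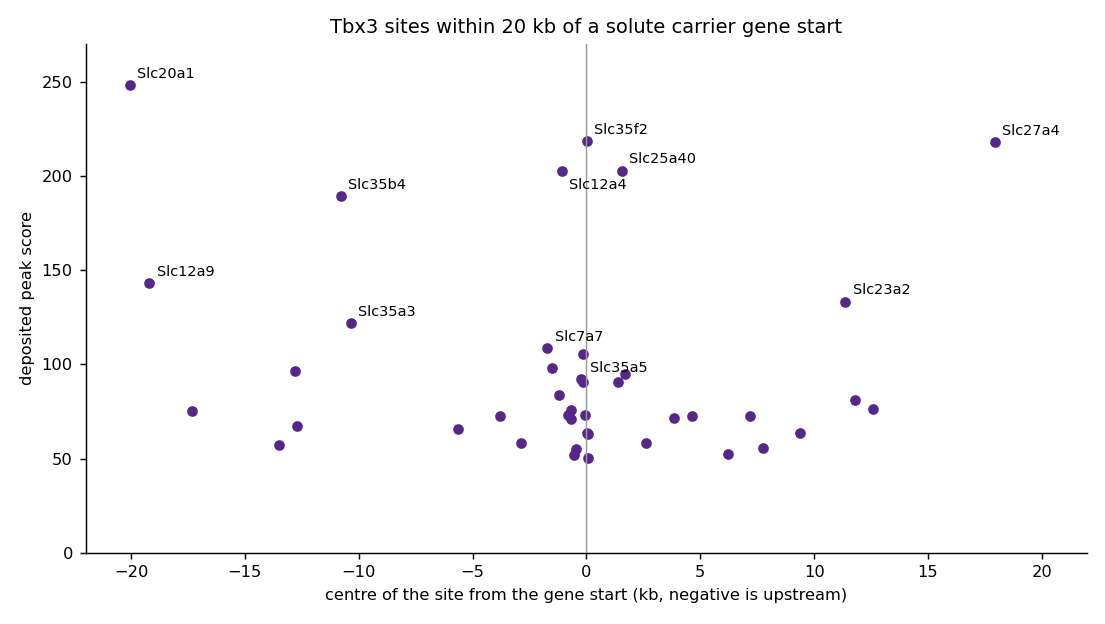
Deposited peak score of the 42 Tbx3 sites within 20 kb of a solute carrier gene start (vertical axis) against the distance in kb from the gene start to the centre of the site (horizontal axis, negative is upstream). Of the site centres, 13 lie within 1 kb of the start, and high scores are seen both at a start (Slc35f2, 219) and near the edge of the window (Slc20a1, 248, and Slc27a4, 218).

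Whether genes with a site differed from those without was not tested. The 37 genes with a site had a median log2 difference of -0.06 in N/N against +/+, and the 143 without a site past the filter 0.01. None of the 5 genes past 2-fold in that comparison had a site, where 20.2% of the 183 genes had one. These genes are too few to read a share from, and the share with a site among all genes past 2-fold was not counted. At 1.5-fold, 4 genes with a site were higher and 2 lower, and 8 without a site were higher and 9 lower. Slc43a1, Slc1a4, Slc4a11 and Slc25a1 were the higher ones, and Slc39a14 and Slc22a18 the lower. In shTbx3 against shLuc the 37 genes with a site had a median of 0.21 and the 144 without 0.14. There, 3 genes with a site were 1.5-fold or more higher and 1 lower, and 23 without a site were higher and 2 lower. Slc25a22 was the 1 gene of the 3 past 2-fold that had a site, and that site lay 16928 bp from its start and over the start of Pnpla2.

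In the 45 single cells, most solute carriers were read in few cells. A gene was counted in a cell at 1 FPKM or more, and intervals are exact Clopper-Pearson 95% intervals that cover counting error only. Of the 183 genes, 45 were in no cell, 96 in 1 to 4 cells, 32 in 5 to 22 and 10 in at least 23 (5.46%, beside 13.3% of the genes of the bulk table). A count of 0 of 45, read as up to 3 counts, allows a share of up to 6.67% of cells with the gene at 1 FPKM, and the exact interval reaches 7.87%. Neither limits the share of cells that express it. Of the 45 genes in no cell, 40 stood at 1 FPKM or more in the pool, and 176 of the 183 did so in all. A cell held 10 to 33 of the solute carriers, with a median of 18, among 1642 to 3295 genes in all.

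Slc25a5, Slc39a1 and Slc24a5 were in all 45 cells (interval 92.1% to 100%). Slc25a3 was in 42 (93.3%, interval 81.7% to 98.6%), Slc25a4 in 41 (91.1%, 78.8% to 97.5%), Slc38a2 in 37 (82.2%) and Slc7a3 in 34 (75.6%, 60.5% to 87.1%). Slc15a1 was in 33, Slc16a1 in 30 and Slc25a39 in 29. Slc25a5 ranged from 163 to 3762 FPKM with a median of 1214. Slc16a1 and Slc25a39 varied more: Slc16a1, which moves lactate, had a median of 1.62 and a highest value of 307 FPKM, and Slc25a39 had a median of 15.1 and a highest value of 1971 FPKM. The standard deviation was 2.70 times the mean for Slc16a1 and 2.21 times for Slc25a39, against 0.633 times for Slc25a5, whose level was far higher. Slc16a1 and Slc25a39 were picked for their spread among the genes in at least 23 cells. Genes of like level were not compared.

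Many carriers of high bulk level were read in few cells. Of the 100 solute carriers at 5 FPKM or more in +/+, 8 were in at least 23 cells (8.0%, beside 18.3% of all genes past the same floor). Their median was 3 cells, against 7 for all genes past it. The floor does not match levels: over the whole table, the +/+ median was 5.75 FPKM for solute carriers and 9.83 for all genes. Slc16a3 stood at 121 FPKM in +/+ and 102 FPKM in the pool and was in 3 cells, and Slc25a1 at 83.9 FPKM in +/+ was in 5. At 5 FPKM or more in +/+, 12 were in no cell, among them Slc45a4 (25.7 FPKM), Slc39a4 (22.3) and Slc44a1 (14.6). Pou5f1, which marks these cells, was in 11 of 45 although it stood at 1370 FPKM in the pool. Stem cell markers did not all behave this way. Of the others listed in bulk, Nanog was in 12 cells, Esrrb in 27, Sox2 in 35, and Sall4 and Zfp42 in all 45.

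Slc24a5 went the other way. This potassium-dependent sodium-calcium exchanger, known from pigment cells, stood at 0.514 FPKM in +/+ and 0.615 FPKM in the pool, but at a median of 1898 FPKM in the cells, from 2.45 to 4614. On the annotation, 39.5% of its exon bases are shared with Myef2 on the opposite strand, which had a median of 1294 FPKM in the cells and 33.6 FPKM in the pool. The values of both genes were lowest in the same cell, and their Spearman rho over the 45 cells was 0.95. Strand-specific counting is not stated, so reads over the shared bases cannot be assigned to either gene. The rest of the Slc24a5 exon bases are shared with no other annotated gene. In the +/+ bulk library Myef2 stood at 11.9 FPKM. Why Slc24a5 was high in the cells was not tested. Slc39a1 was also higher in the cells than in the pool (median 183 FPKM against 20.1), as was Slc15a1 (14.2 against 2.79). Among the 206 genes at 1 FPKM or more in every cell, 35 had a cell median over 10 times the pool value.

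**Figure D5:**
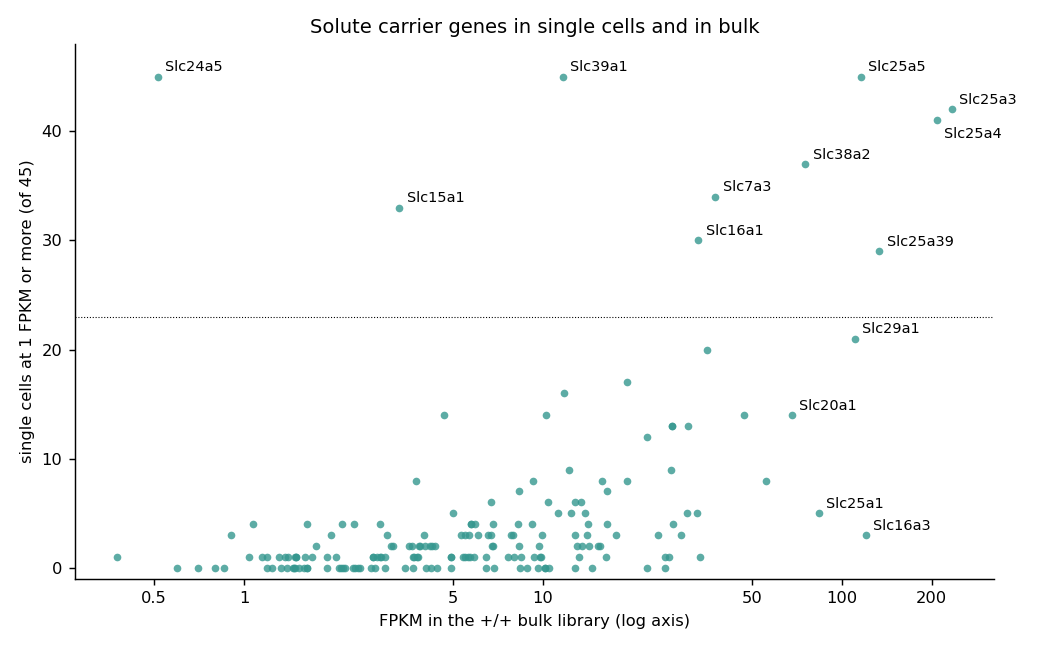
Number of the 45 single cells in which each solute carrier gene reached 1 FPKM (vertical axis) against its FPKM in the +/+ bulk library (log axis), with a dotted line at 23 cells. Genes of high bulk level such as Slc16a3 (3 cells) and Slc25a1 (5 cells) lie low, and Slc24a5 lies at 45 cells with 0.514 FPKM in bulk.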

How the data were processed

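RNA was read in 5 bulk libraries (1 per group), 45 single cells and 1 pool, and Tbx3 binding in 1 pull-down. The deposited bulk FPKM were made by the authors with TopHat, Cufflinks and Cuffdiff on mm9, and the deposited cell FPKM with Cuffnorm after TopHat, as the submitters' processing notes say. The 2 tables were scaled separately, so levels set across them are only placed side by side. Bulk libraries were read as single reads of 26 or 100 bp and cells as 100 bp, per the labels' protocols; which bulk library had which length is not given. Short reads shared by gene copies may be split, and FPKM sets each library to its own total. The deposited peak score belongs to sites for which the notes name Bowtie 1.0 and HOMER. Fragments per library are not given in the sources used here, so no counting precision is given for FPKM.

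Names were matched in Python 3.11.15 (pandas 2.3.3, SciPy 1.17.1), and log2((a + 1)/(b + 1)) was computed for 4 comparisons with a pseudocount of 1 FPKM, over genes that reached 1 FPKM in at least 1 of the 2. No p-value is given, since every group is a single library. Counts at 2-fold and 1.5-fold stand beside the share of all genes. Gene starts came from GENCODE vM1 (98.5% of names placed). Genes named are the 10 largest differences each way per comparison at 5 FPKM or more, the 3 highest and 3 most changed per class, those with a site and those in most or fewest cells; not all are given. The members, classes and lists were chosen with earlier results of these data known. The fold count and the site distance were tested on simulated data. Alternatives changed the pseudocount, filter, scaling, fold, names, site window and cell threshold.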

Additional observations from a re-analysis of the deposited data

How the results depend on the processing

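The 2-fold counts depended on the pseudocount. With a pseudocount of 0.1 instead of 1, the counts higher and lower were 6 and 8 in N/N against +/+, 2 and 4 in +/N against +/+, 0 and 2 in N/N against +/N, and 9 and 2 in shTbx3 against shLuc. With a pseudocount of 5, all 8 counts were 0. At 1.5-fold they were 12 and 11, 4 and 11, 0 and 2, and 26 and 3 in the same order of comparisons. With the median of genes at 5 FPKM set to 0, 2 genes were lower in shTbx3 and the median of solute carriers was 0.0150 there and 0.0666 in +/N against +/+. With values rescaled without small RNA genes, 1 gene was lower in shTbx3, and the medians were 0.0124 in shTbx3 against shLuc, 0.0525 in +/N against +/+ and -0.0748 in N/N against +/N. A filter at 5 FPKM or none, and names with a suffix kept, left these counts within 1.5 times. The median in N/N against +/+ stayed near 0, at -0.04 with the filter at 5 FPKM and -0.01 when rescaled. Of 320 values of named genes (80 under each pseudocount and each scaling), 308 kept their direction and side of 2-fold, 10 fell below 2-fold, 2 passed it and 0 reversed. A change of pseudocount cannot reverse a direction, and most of these values were under 2-fold to begin with. With a pseudocount of 5 no named value stayed past 2-fold, so the tally does not show that the 2-fold calls hold. Sites lay near 23 genes in a 5 kb window (12.6%, beside 7.42% of all genes), 60 at 50 kb (32.8%, beside 26.5%), 42 when measured to the gene body (22.95%, beside 20.9%) and 18 with the upper part of the scores (9.84%, beside 7.51%). With 0.1 FPKM as the threshold, 18 genes were in at least 23 cells. No paired analysis was possible because each group has 1 bulk library and no test was made.

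With 1 library per group, no spread between replicates is known, so every fold above describes those libraries. Read lengths and depths were not given per library. Cell detection at 1 FPKM depends on the unknown depth of each cell.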

Other observations

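Across the 183 genes, the level in +/+ and the level in the pool ranked alike (Spearman rho 0.94), while the level in +/+ and the number of cells ranked less alike (rho 0.55); these are across genes, which are not independent replicates. Over the 45 cells, the number of solute carriers and the number of all genes at 1 FPKM ranked alike (rho 0.86), and both share the depth of the cell.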
